A study of Mus musculus with 12 samples.

Results

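The 46 genes described here encode the enzymes and carriers of glycolysis (22 genes), the pentose phosphate pathway (7 genes) and the TCA cycle with its entry points (17 genes). They were picked by symbol as pathway members, by a rule that uses no measured value but was written with earlier results of these data known, from the 40847 rows of a gene count table. All 46 had a row. The cells were FLAMs, mouse fetal liver alveolar-like macrophages, a culture model of the resident macrophages of the lung that is grown from fetal liver and is not lung tissue itself. Messenger RNA was sequenced from 4 groups of 3 libraries, and all 12 libraries came from cells kept in recombinant mouse GM-CSF at 30 ng/ml. The untreated group received nothing further. The TGFβ group was kept in recombinant human TGFβ1 at 20 ng/ml, the Pam3 group received the TLR2 ligand Pam3CSK4 at 25 ng/ml for 18 h, and the Pam3+TGFβ group received both agents. The series concerns the effect of TGFβ on the answer to a TLR2 ligand. The labels do not say whether the libraries of a group came from separate cultures, so the p-values measure the spread between these libraries, which may be technical.

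Library totals ran from 34036650 to 44374115 counts. All 13 macrophage markers and all 14 alveolar macrophage markers passed the filter on low counts used for the tests below. The summed macrophage list was 33852 to 38157 CPM in untreated cells, 18228 to 19195 with TGFβ, 37010 to 38047 with Pam3 and 27671 to 28351 with both agents, where CPM is a count rate scaled to each library's TMM-adjusted size. The summed alveolar macrophage list stayed between 9232 and 10832 CPM, although its genes moved in both directions. With TGFβ alone, 10 of the 14 were higher and 4 lower (edgeR, adjusted p under 0.05). The shares of all tested genes were 22.9% and 28.1%. With TGFβ in Pam3 cells, 9 were higher and 4 lower, against 21.5% and 23.8% of all tested genes. Of the hepatocyte markers, Ttr and Fgb held no count in any library, and 4 of 8 held at most 3 counts in each library. Krt8, Krt18 and Sftpc, which mark epithelium, held none. The summed hepatocyte list, nearly all Trf, was 868 to 959 CPM in untreated cells and 1904 to 2035 CPM with TGFβ, and the epithelial list, mostly Cdh1, was 160 to 184 and 432 to 446 CPM. The endothelial list was 288 to 303 CPM in untreated cells and 181 to 197 CPM with TGFβ. With Pam3 alone these hepatocyte, epithelial and endothelial lists were at 871 to 907, 143 to 153 and 218 to 223 CPM, and with both agents at 1757 to 1848, 272 to 283 and 122 to 137 CPM. The epithelial and endothelial lists were thus lower with Pam3, with or without TGFβ. The part of the marker lists in the TGFβ effects and Pam3 responses below was not tested. The libraries also differed in RNAs that lack poly(A) tails (Rn7sk, Rn7s1, Rn7s2, Rmrp and Rpph1). These summed to 12.1, 20.5 and 1220 CPM in the untreated libraries, 335, 6 and 606 CPM with TGFβ, 17.4, 207 and 332 CPM with Pam3, and 15.7, 72.6 and 83.2 CPM with both. Replicates with unlike levels of these RNAs stood apart from each other, so counts are also given below for the 7 libraries under 100 CPM. In bulk RNA, fewer cells of a type and less RNA per cell cannot be told apart.

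Glycolysis takes up glucose, phosphorylates it and splits it to pyruvate, and activated macrophages are known to run it fast and to export lactate. The pentose phosphate pathway branches off at glucose 6-phosphate and yields NADPH, used in lipid synthesis and in defence against oxidants, and ribose for nucleotides. The TCA cycle oxidizes acetyl-CoA in mitochondria and also supplies citrate and succinate for synthesis and signalling.

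Some members share their sequence with intronless copies elsewhere in the genome, and an aligner that does not split reads over introns can place reads that cross an exon junction on such a copy. A search with the coding sequences (at least 85% identity over 50% of the length) found copies for 16 of the 46 members. Copies of 6 members held 1000 counts or more. The following 60 bases around an exon junction show how close these copies are, with capitals marking the bases that differ. The Gapdh stretch joins the last 30 bases of exon 5 and the first 30 of exon 6, which an intron of 84 bases separates on chromosome 6, and the same run lies unbroken in Gm12070 at chr11:26737353-26737412 (GRCm39, plus strand). The G6pdx stretch joins exons 7 and 8 across an intron of 307 bases on chromosome X, and its copy G6pd2 at chr5:61966967-61967026 (plus strand) differs at 1 base.
Gapdh: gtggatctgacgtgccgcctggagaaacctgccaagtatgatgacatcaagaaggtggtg
Gm12070: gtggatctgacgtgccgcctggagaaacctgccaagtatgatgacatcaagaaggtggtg
G6pdx: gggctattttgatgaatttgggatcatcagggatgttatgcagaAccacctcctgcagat
G6pd2: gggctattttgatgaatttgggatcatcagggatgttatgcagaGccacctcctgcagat

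Summed over the 12 libraries, Gapdh held 63909 counts and Gm12070 held 85771, so the copy took more than the gene. The same was found for the enolase gene Eno1, with 167405 counts against 242713 for Eno1b. G6pdx held 105613 counts against 82855 for G6pd2, Cs 145069 against 38743 for Csl, and Pdha1 32904 against 16813 for 4930519F09Rik. Aldoa held 334005 counts against 138575 for Aldoart1 and 66312 for Aldoart2. The level of these 6 members is therefore uncertain. Of the 376 copies found, only 20 could be counted here. The copies of Gpi1, Tpi1, Pgk1, Pgam1, Pkm, Ldhb, Taldo1, Pdhb and Mdh2 were not among those 20, so how many reads they took was not measured and the levels of these genes are uncertain as well. Ldha had 29 copies, of which only 2 were among the 20, with 9 counts in all, so its level is uncertain too. For 4 of the 6 members whose copies held 1000 counts or more, the copy was close to its gene in the response to Pam3 in TGFβ cells. The Pam3 response with TGFβ was 0.36 on the log2 scale for Gapdh and 0.32 for Gm12070, and 0.26 for G6pdx and 0.23 for G6pd2. It was 0.20 for Cs and 0.21 for Csl, and 0.17 for Eno1 and 0.15 for Eno1b. In the other contrasts Gm12070 stayed close to Gapdh (TGFβ alone -0.48 and -0.46, interaction 0.33 and 0.32) and G6pd2 to G6pdx (TGFβ alone -0.09 and -0.08, interaction 0.12 and 0.16). Some calls differed between a gene and its copies. In cells with Pam3, TGFβ was called to lower Gm12070 (-0.14, adjusted p = 0.0396) but not Gapdh (-0.14, adjusted p = 0.0922), and a smaller copy of Gapdh, Gm29667, was called neither for Pam3 with TGFβ (0.24, adjusted p = 0.0721) nor for the interaction (0.30, adjusted p = 0.185), where Gapdh was. The interaction was called for Aldoart1 (0.29), Aldoart2 (0.37) and Csl (0.24) but not for Aldoa (0.19) and Cs (0.15), and it was called for Pdha1 (-0.29) but not for its copy (-0.13). Aldoart2 was lower with TGFβ alone (-0.16, adjusted p = 0.0282), where Aldoa was at 0.03. With the counts of the measured copies added, no call of a member was lost, and Aldoa gained the interaction (0.24, adjusted p = 0.0475). Separately, 12 members overlap a gene on the opposite strand that held over 10% of their counts, and the strand setting of the counting is not given in the sources used here. The overlapping gene held 583% of the counts of Pfkm (Senp1), 218% of Idh2 (Zfp710), 200% of Pdhb (Pxk) and 165% of Slc16a3 (Csnk1d), so these 4 genes are uncertain too. So is Pcx, which Rce1 (80.1% of its counts) and Lrfn4 (44.8%) overlap. Some overlapping genes were called in the same contrast and direction as their member. These were Cfap410 with Pfkl, Pitrm1 with Pfkp, Spsb2 with Tpi1, Iffo1 with Gapdh, Kansl1l with Rpe and Pxk with Pdhb. Others were called in the opposite direction: with Pam3 in TGFβ cells, Iffo1 was at -0.55 and Gapdh at 0.36, and Senp1 at 0.19 and Pfkm at -0.34. Zfp710 was called opposite to Idh2 in 3 contrasts.

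Of the 46 members, 45 passed the filter on low counts. The brain enolase Eno2 did not, with 0 to 0.627 CPM per library. Pam3 alone changed 15 of the 45: 8 glycolysis genes rose and 2 fell of 21, 1 pentose phosphate gene rose and 1 fell of 7, and no TCA gene rose and 3 fell of 17. Over all 14749 tested genes, 9.62% rose and 8.66% fell (18.3% in all) in that comparison. Pam3 on top of TGFβ raised 16 of the 21 glycolysis genes and lowered 2, against 20.4% and 18.1% (38.5% in all) of all tested genes. It also raised 5 TCA genes, lowered 4, and raised 1 pentose phosphate gene. With upper-quartile scaling the glycolysis genes numbered 11 higher and 3 lower and the TCA genes 3 higher and 7 lower. Leaving out 1 library gave 13 to 18 glycolysis calls, and the 7 libraries low in RNAs without poly(A) tails gave 12. TGFβ alone lowered 11 glycolysis genes and raised 3, and lowered 10 TCA genes and raised 3, against 28.1% lower and 22.9% higher (51% in all). In cells with Pam3, TGFβ raised 8 and lowered 6 glycolysis genes and raised 3 and lowered 6 TCA genes, against 21.5% higher and 23.8% lower (45.3% in all). TGFβ raised 4 of the 7 pentose phosphate genes and lowered none, with or without Pam3. The interaction, the difference between the Pam3 responses of TGFβ cells and of cells without TGFβ, was positive and called for 10 glycolysis genes and negative for 1, against 10.3% and 5.67% (15.9% in all) of all tested genes. It was positive for 2 and negative for 2 TCA genes and was called for none of the pentose phosphate genes. The comparisons share libraries with each other in part: each group enters 2 of the 4 simple contrasts.

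**Figure D1:**
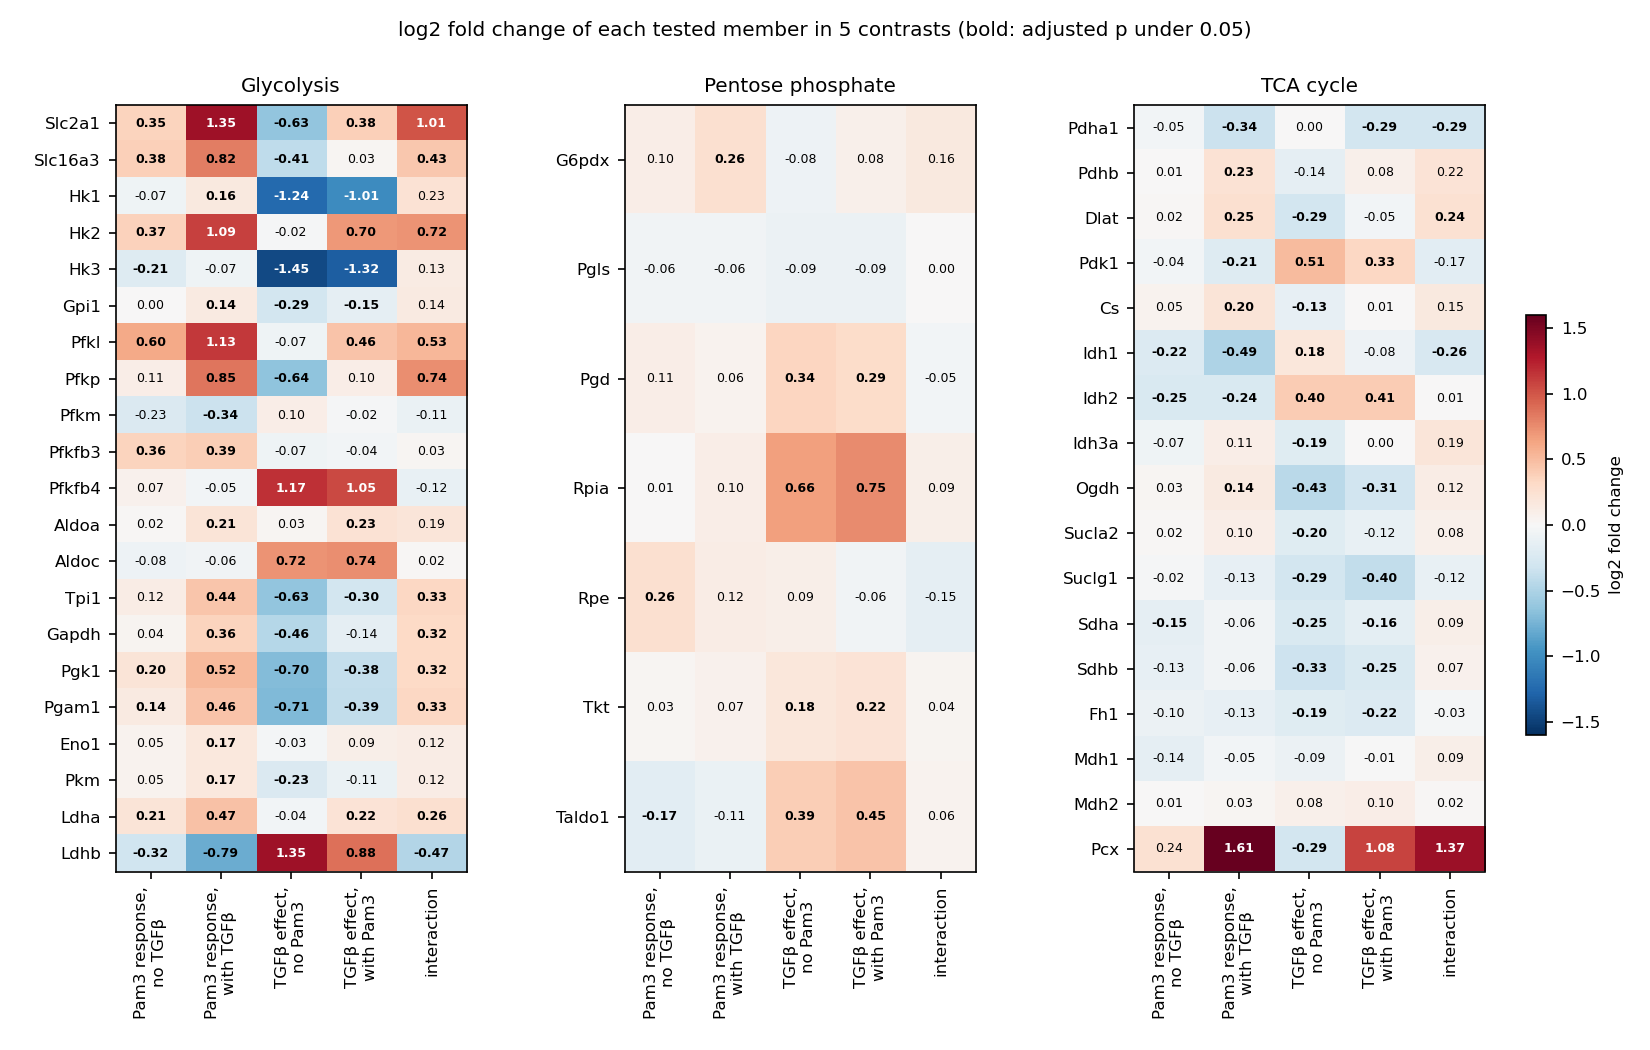
Each cell gives the log2 fold change of a tested member in 1 of 5 contrasts, by pathway, with red for higher and blue for lower and bold type for an adjusted p under 0.05. The second glycolysis column is mostly red and the third mostly blue, the pentose phosphate panel is pale but for the TGFβ columns, and Pcx at 1.61 is the deepest red of the TCA panel.

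Glucose enters through Slc2a1, the carrier GLUT1 (chr4:118965908-118996365, plus strand). Slc2a1 read 145, 176 and 159 CPM in the untreated libraries, 102, 110 and 97.5 with TGFβ, 196, 202 and 212 with Pam3, and 272, 261 and 260 with both agents. All 3 Pam3+TGFβ libraries lay above every other library, and all 3 TGFβ libraries lay below. With Pam3 the log2 fold change was 0.35 (SE 0.0588, adjusted p = 0.000117) without TGFβ and 1.35 (SE 0.0599, adjusted p = 5.33e-15) with it. The call without TGFβ was lost in the 7 libraries low in RNAs without poly(A) tails (0.30, adjusted p = 0.0665). TGFβ alone lowered it (-0.63, SE 0.0594, adjusted p = 3.76e-09), and in cells with Pam3 TGFβ raised it (0.38, SE 0.0586, adjusted p = 9.28e-06), so the direction of the TGFβ effect was opposite in the 2 settings. The interaction was 1.01 (SE 0.0834, adjusted p = 3.23e-09).

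The hexokinases trap glucose by phosphorylating it. Hk2, the inducible isoenzyme (chr6:82699740-82751469, minus strand), read 140, 134 and 143 CPM in the untreated libraries, 135, 143 and 133 with TGFβ, 176, 180 and 183 with Pam3, and 300, 282 and 297 with both agents. The untreated and TGFβ libraries overlapped, and the 3 Pam3+TGFβ libraries lay far above the Pam3 libraries. Pam3 raised Hk2 by 0.37 (SE 0.0447, adjusted p = 7.31e-07) on the log2 scale without TGFβ and by 1.09 (SE 0.0449, adjusted p = 2.48e-16) with it, and the interaction was 0.72 (SE 0.0631, adjusted p = 3.6e-09). Hk1, the broadly expressed isoenzyme, read 103, 99.7 and 105 CPM in the untreated libraries, 45.8, 41.4 and 43.1 with TGFβ, 92.9, 101 and 99.5 with Pam3, and 49.5, 46.2 and 50 with both agents. TGFβ lowered Hk1 without Pam3 (-1.24, SE 0.0579, adjusted p = 1.69e-15) and with it (-1.01, SE 0.0576, adjusted p = 1.26e-13), and no library with TGFβ reached the level of any library without. Its small rise with Pam3 in TGFβ cells (0.16, SE 0.058, adjusted p = 0.0304) was lost without untreated library 1, TGFβ library 2 or 3, or Pam3+TGFβ library 1 or 3 (0.11 to 0.14, adjusted p = 0.0652 to 0.212). Hk3, the isoenzyme of myeloid cells, read 98, 107 and 95.8 CPM in the untreated libraries, 36.4, 37.1 and 36.5 with TGFβ, 87.4, 87.8 and 85.2 with Pam3, and 36.2, 32.6 and 35.8 with both agents. It too fell with TGFβ, by 1.45 (SE 0.0595, adjusted p = 1.23e-16) without Pam3 and 1.32 (SE 0.0596, adjusted p = 1.18e-15) with it. Pam3 alone lowered Hk3 slightly (-0.21, SE 0.0575, adjusted p = 0.0114), a call that was lost without untreated library 2 (-0.16, adjusted p = 0.055).

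The makeup of the hexokinases differed between the groups. On the per-length scale (CPM per kb of the canonical transcript), Hk2 made up 24.4% ± 1.02 (SD, n = 3) of their sum without treatment, 31.6% ± 0.45 with Pam3, 45% ± 1.29 with TGFβ and 62.9% ± 0.425 with both. Hk3 went from 42.7% ± 2.16 in untreated cells to 18.1% ± 0.335 with both, and Hk1 from 32.9% ± 1.14 to 19% ± 0.174. The log2 ratio of Hk2 to Hk3 was 2.02 higher with TGFβ in cells with Pam3 and 1.43 higher without Pam3, with no overlap of libraries. In the exact two-sided permutation test of 3 libraries against 3, these and 27 other isoenzyme comparisons of 32 reached p = 0.1, which is the smallest this design allows.

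After isomerization by Gpi1, phosphofructokinase commits the sugar to glycolysis. Gpi1 ran from 169 to 225 CPM and was lower with TGFβ (-0.29, SE 0.0461, adjusted p = 9.52e-06). With Pam3 present the TGFβ effect on Gpi1 was -0.15 (SE 0.046, adjusted p = 0.0109), lost without Pam3 library 3 (-0.11, adjusted p = 0.0882). Its rise with Pam3 in TGFβ cells (0.14, SE 0.0461, adjusted p = 0.0166) was lost without TGFβ library 2 or 3 or Pam3+TGFβ library 1 or 3 (adjusted p = 0.0593 to 0.14). Pfkl, the liver-type subunit (chr10:77818084-77845922, minus strand), read 67.4, 75.9 and 62.1 CPM in the untreated libraries, 63.8, 72 and 60.6 with TGFβ, 102, 103 and 106 with Pam3, and 153, 142 and 134 with both agents. Untreated and TGFβ libraries overlapped, the Pam3 libraries were higher and the Pam3+TGFβ libraries highest. Its Pam3 response was 0.60 (SE 0.0703, adjusted p = 8.93e-07) without TGFβ and 1.13 (SE 0.0706, adjusted p = 3.91e-12) with it, and the interaction was 0.53 (SE 0.099, adjusted p = 0.000445). Cfap410, which overlaps Pfkl with 11.3% of its counts, was 0.41 higher with Pam3 in TGFβ cells (adjusted p = 0.0014) with an interaction of 0.62 (adjusted p = 0.00193), and its part in the result was not tested. Pfkp, the platelet-type subunit (chr13:6629798-6698970, minus strand), read 179, 183 and 175 CPM in the untreated libraries, 114, 117 and 114 with TGFβ, 203, 190 and 186 with Pam3, and 207, 198 and 217 with both agents. TGFβ alone brought it to the lowest level of any group (-0.64, SE 0.0464, adjusted p = 1.19e-11). Pam3 did not change it past the threshold without TGFβ (0.11, SE 0.0459, adjusted p = 0.102) and raised it with TGFβ (0.85, SE 0.0464, adjusted p = 6.53e-14), to a level that was not called different from that with Pam3 alone (0.10, SE 0.0459, adjusted p = 0.0732). The interaction of Pfkp was 0.74 (SE 0.0652, adjusted p = 3.88e-09). Pfkm, the muscle-type subunit, stayed between 6.23 and 9.93 CPM, and its fall with Pam3 in TGFβ cells (-0.34, SE 0.13, adjusted p = 0.0389) was lost without TGFβ library 1 or 3 or Pam3+TGFβ library 1 or 2 (-0.36 to -0.28, adjusted p = 0.0699 to 0.146). Per kb, Pfkp remained the largest share of the 3 subunits in every group, at 68.9% ± 1.72 in untreated cells and 56.8% ± 2.05 with both agents. The share of Pfkl was 27.6% ± 1.49 and 41.1% ± 2.38 (SD, n = 3).

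Phosphofructokinase is switched on by fructose 2,6-bisphosphate, which the PFKFB enzymes make and remove. Pfkfb4 read 81.9, 88.3 and 79.7 CPM in the untreated libraries, 193, 183 and 186 with TGFβ, 89, 84.3 and 88.3 with Pam3, and 172, 180 and 189 with both agents. The libraries with TGFβ lay above all those without it, and Pam3 made no called difference. TGFβ raised Pfkfb4 by 1.17 (SE 0.0508, adjusted p = 4.21e-16) without Pam3 and by 1.05 (SE 0.0507, adjusted p = 4.58e-15) with it. Pfkfb3 rose with Pam3, by 0.36 (SE 0.0823, adjusted p = 0.00263) without TGFβ and 0.39 (SE 0.0823, adjusted p = 0.000411) with it, and TGFβ effects of -0.07 and -0.04 that were not called (adjusted p = 0.483 and 0.73). Per kb, Pfkfb4 was the larger of the pair in each group, from 81.6% ± 0.327 with Pam3 to 92.8% ± 0.252 with TGFβ.

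**Figure D2:**
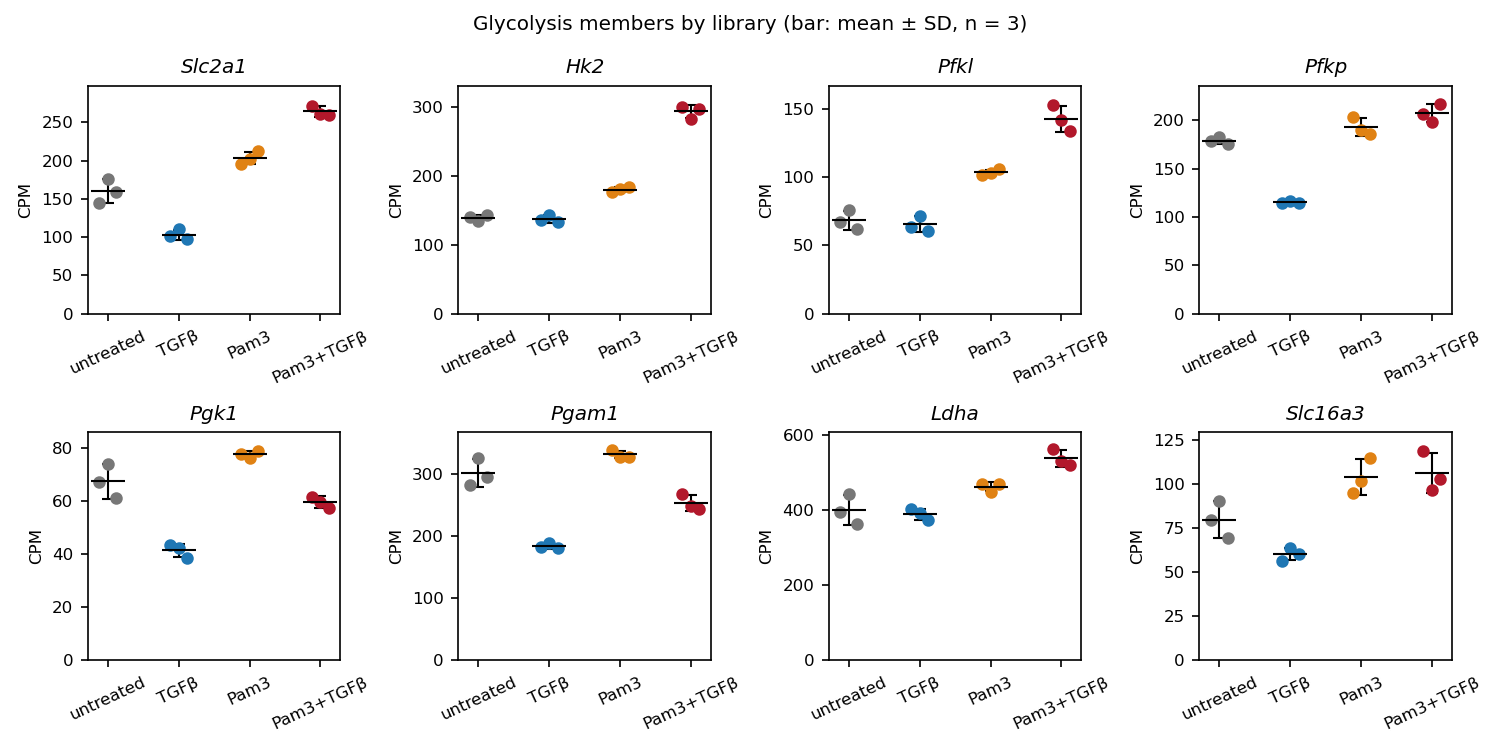
Points are the 3 libraries of each group in CPM, and the bar and whiskers are their mean and SD, for 8 glycolysis genes. Slc2a1, Hk2, Pfkl and Ldha are highest in the Pam3+TGFβ libraries, while Pgk1 and Pgam1 with both agents stay below their level with Pam3 alone.

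The aldolases split the sugar. Aldoa, the main form in most tissues, was the most abundant glycolysis member per kb in each group, with 462 CPM per kb in untreated cells and 547 with both agents, although its copies make this level uncertain. It rose with Pam3 in TGFβ cells (0.21, SE 0.0602, adjusted p = 0.00654), a call lost with upper-quartile scaling (0.15, adjusted p = 0.0545) and in the 7 libraries low in RNAs without poly(A) tails (0.21, adjusted p = 0.0884). It also rose with TGFβ in Pam3 cells (0.23, SE 0.0602, adjusted p = 0.0031). Aldoc, known from brain, was higher with TGFβ and read 107, 118 and 107 CPM without treatment, 104, 102 and 108 with Pam3, 187, 185 and 173 with TGFβ and 174, 175 and 175 with both. Libraries with and without TGFβ did not overlap, and the effect was 0.72 (SE 0.0492, adjusted p = 3.79e-12) without Pam3 and 0.74 (SE 0.0493, adjusted p = 2.7e-12) with it. Its share of the 2 aldolases per kb was 7.93% ± 0.325 in untreated cells and 12.1% ± 0.58 with TGFβ.

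Tpi1 (triose isomerase), Gapdh (which makes NADH), Pgk1 (which makes ATP) and Pgam1 (mutase) were each lower with TGFβ alone, with log2 fold changes of -0.63, -0.46, -0.70 and -0.71. Pgam1 (chr19:41900341-41907104, plus strand) read 282, 326 and 295 CPM in the untreated libraries, 183, 189 and 180 with TGFβ, 338, 328 and 328 with Pam3, and 268, 248 and 244 with both agents, so the TGFβ libraries lay lowest and those with both agents lay between them and the rest. Pam3 raised Pgam1 in TGFβ cells (0.46, SE 0.048, adjusted p = 1.52e-08) but did not bring it to the level with Pam3 alone, against which it was lower (-0.39, SE 0.0477, adjusted p = 2.12e-07). Pgk1 read 67.4, 74.2 and 61.1 CPM in the untreated libraries, 43.5, 42.2 and 38.7 with TGFβ, 77.7, 76.3 and 79.1 with Pam3, and 61.8, 59.7 and 57.3 with both agents and was also lowest with TGFβ alone, although its untreated and Pam3+TGFβ libraries overlapped. It had a Pam3 response of 0.52 (SE 0.0668, adjusted p = 5.17e-07) in TGFβ cells and a TGFβ effect of -0.38 (SE 0.0659, adjusted p = 2.85e-05) in Pam3 cells. For Tpi1 these values were 0.44 (SE 0.0708, adjusted p = 3.47e-05) and -0.30 (SE 0.0704, adjusted p = 0.00152). Spsb2, which overlaps Tpi1, was lower with TGFβ as well (-0.40 without Pam3 and -0.50 with it), as was Iffo1, which overlaps Gapdh, without Pam3 (-0.35). Gapdh, often used as a reference gene, ran from 106 CPM in a TGFβ library to 174 CPM in an untreated library and rose with Pam3 in TGFβ cells (0.36, SE 0.066, adjusted p = 0.000145). In cells without TGFβ the Pam3 responses of Pgk1 (0.20, SE 0.0657, adjusted p = 0.0332) and Pgam1 (0.14, SE 0.0476, adjusted p = 0.046) were small. The Pgk1 call was lost without untreated library 1 or 3 or any Pam3 library (0.13 to 0.21, adjusted p = 0.066 to 0.195), and the Pgam1 call without untreated library 1 or 3, any TGFβ library or any Pam3 library (0.10 to 0.14, adjusted p = 0.0502 to 0.232). The Pgam1 call was also lost with upper-quartile scaling (0.12, adjusted p = 0.0801), under DESeq2 (0.13, adjusted p = 0.0522) and with no filter (0.13, adjusted p = 0.0653).

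Enolase and pyruvate kinase finish the pathway. Eno1 read 319 to 413 CPM over all libraries and Pkm 626 to 867 CPM. Their Pam3 responses with TGFβ were both 0.17 and called (adjusted p = 0.034 and 0.0275). The Eno1 call was lost without untreated library 1, any TGFβ library or any Pam3+TGFβ library (0.12 to 0.17, adjusted p = 0.0558 to 0.172). That of Pkm was lost without TGFβ library 2 or 3 or Pam3+TGFβ library 1 or 2 (0.12 to 0.17, adjusted p = 0.0668 to 0.204). TGFβ alone lowered Pkm (-0.23, SE 0.0621, adjusted p = 0.00309) and left Eno1 uncalled (-0.03, SE 0.0616, adjusted p = 0.748).

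Lactate dehydrogenase turns pyruvate to lactate, and in TGFβ cells its 2 subunits moved in opposite directions with Pam3. Ldha (chr7:46490899-46505061, plus strand) read 394, 442 and 363 CPM in the untreated libraries, 401, 390 and 373 with TGFβ, 469, 448 and 468 with Pam3, and 561, 530 and 518 with both agents. The untreated and TGFβ libraries overlapped and the Pam3+TGFβ libraries were the highest. Pam3 raised Ldha in TGFβ cells (0.47, SE 0.0579, adjusted p = 3.1e-07) and less in cells without TGFβ (0.21, SE 0.0578, adjusted p = 0.0113), the latter lost without untreated library 3 or Pam3 library 1 (0.14 and 0.20, adjusted p = 0.1 and 0.0505). Ldhb, the heart-type subunit, read 12.5, 14.5 and 12.7 CPM in the untreated libraries, 35.5, 30.9 and 34.6 with TGFβ, 11.2, 9.88 and 10.8 with Pam3, and 17.9, 19.3 and 21.3 with both agents. TGFβ raised it by 1.35 (SE 0.0901, adjusted p = 2.34e-12) without Pam3, a mean CPM 2.54-fold higher, and by 0.88 (SE 0.093, adjusted p = 1.56e-08) with Pam3. Pam3 lowered it in TGFβ cells (-0.79, SE 0.0878, adjusted p = 5.6e-08). In cells without TGFβ the Pam3 effect on Ldhb (-0.32, SE 0.0946, adjusted p = 0.0189) was lost without untreated library 2 or Pam3 library 2 (-0.24 and -0.27, adjusted p = 0.0913 and 0.108). The interaction of Ldhb was the only negative call among the glycolysis genes (-0.47, SE 0.129, adjusted p = 0.0123). Even so, Ldha made up 91.7% ± 0.598 of the pair per kb with TGFβ and 96.4% to 97.7% in the other groups. Slc16a3, the lactate exporter MCT4, read 79.7, 90.4 and 69.2 CPM in the untreated libraries, 56.6, 63.6 and 60.4 with TGFβ, 95.2, 102 and 115 with Pam3, and 119, 96.8 and 103 with both agents. Its TGFβ libraries were the lowest, and its Pam3 and Pam3+TGFβ libraries overlapped. The Pam3 response was 0.82 (SE 0.0996, adjusted p = 8.87e-06) with TGFβ, and 0.38 (SE 0.0988, adjusted p = 0.0136) without, the latter lost without untreated library 1 or Pam3 library 3 (0.39 and 0.30, adjusted p = 0.0512 and 0.061). The overlapping gene Csnk1d was not called in any of the 5 contrasts (log2 fold changes from -0.02 to 0.03).

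**Figure D3:**
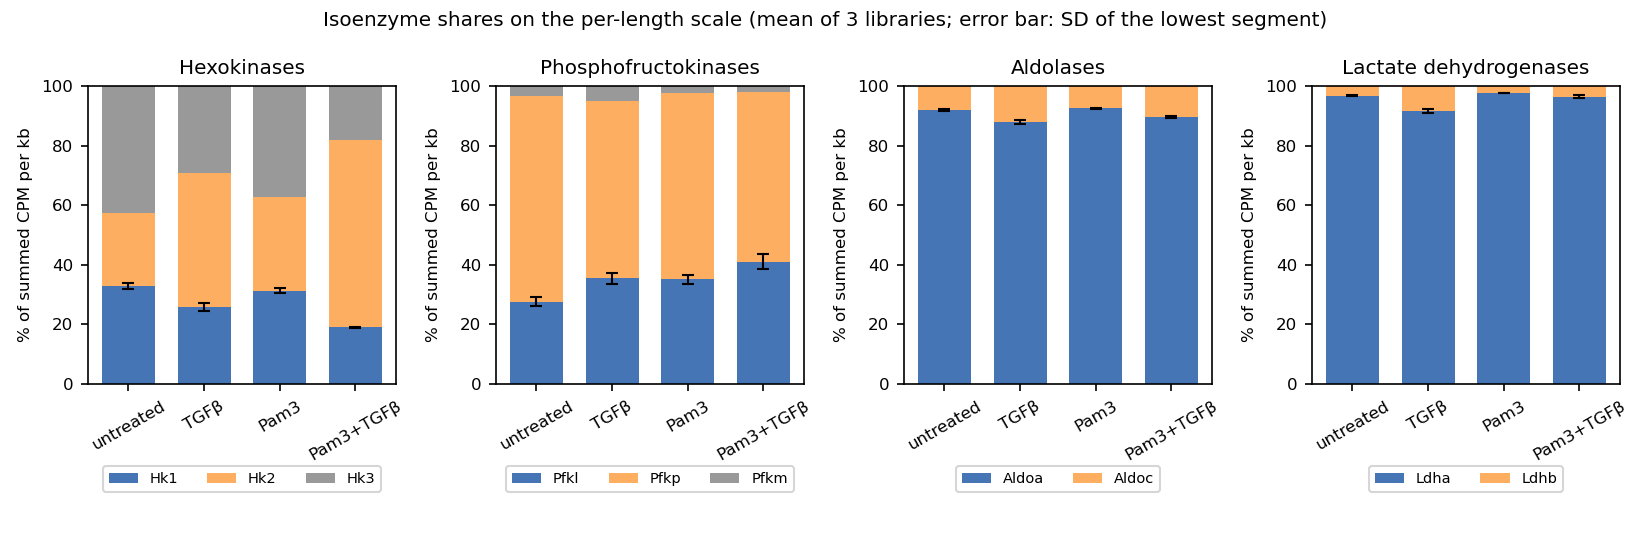
Bars give each isoenzyme's mean share (%) of its family's summed CPM per kb in the 4 groups, with whiskers for the SD of the lowest segment over 3 libraries. Hk2 grows from 24.4% of the hexokinases in untreated cells to 62.9% with both agents, while Ldha stays above 90% of the lactate dehydrogenases.

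Across the 21 tested glycolysis genes, the Pam3 responses with and without TGFβ, which share no library, correlated with Pearson's r of 0.88 and Spearman's rho of 0.90, a description over genes that share their libraries. All 9 genes called in both moved the same way. In the 7 libraries low in RNAs without poly(A) tails, 3 glycolysis genes were called for Pam3 alone in place of 10, and Slc2a1, Slc16a3, Hk3, Pgk1, Pgam1, Ldha and Ldhb lost their calls. The median response was 0.07 without TGFβ and 0.36 with it, beside 0.00 and -0.02 over all tested genes. The interaction was called positive for Slc2a1, Pfkp, Hk2, Pfkl, Slc16a3, Tpi1, Pgam1, Pgk1, Gapdh and Ldha, with values from 0.26 to 1.01. Of these, TGFβ had lowered 7 in cells without Pam3. In cells with Pam3, the level with TGFβ was higher than without for Slc2a1, Hk2, Pfkl and Ldha, lower for Tpi1, Pgk1 and Pgam1, and not called for Slc16a3, Pfkp and Gapdh. That tally changed with the method. Pfkp was called higher under DESeq2, DESeq2-type size factors, limma-trend and the stricter filter. Gapdh was called lower with no filter and with a covariate for the RNAs without poly(A) tails. In the 7 libraries low in those RNAs, which hold a lone Pam3 library, Ldha (0.20) and Tpi1 (-0.26) were no longer called.

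The interaction calls of Slc2a1, Hk2, Pfkl, Pfkp, Pgam1 and Ldhb held with each of the 12 libraries left out in turn, and those of the other 5 did not. That of Tpi1 was lost without TGFβ library 3, Pam3 library 1 or 3 or Pam3+TGFβ library 1 (0.25 to 0.32, adjusted p = 0.0685 to 0.119), and that of Pgk1 without TGFβ library 3 or Pam3+TGFβ library 1 (0.25 and 0.27, adjusted p = 0.0929 and 0.0794). That of Gapdh was lost without TGFβ library 2 or 3, Pam3 library 1 or Pam3+TGFβ library 1 or 2 (0.26 to 0.31, adjusted p = 0.0527 to 0.0853). The Ldha call was lost in 7 such fits (0.19 to 0.25, adjusted p = 0.055 to 0.139), and that of Slc16a3 in 9 of them (0.32 to 0.46, adjusted p = 0.0719 to 0.153). For Ldha these fits left out untreated library 1 or 2, TGFβ library 2 or 3, Pam3 library 2 or Pam3+TGFβ library 1 or 2, and for Slc16a3 all but untreated library 3, Pam3 library 3 and Pam3+TGFβ library 2. Without TGFβ library 3, or without Pam3+TGFβ library 1, 6 glycolysis genes were called in place of 11. Upper-quartile scaling gave 8, without Slc16a3 (0.39, adjusted p = 0.079), Tpi1 (0.28, adjusted p = 0.0586) and Ldha (0.21, adjusted p = 0.0771). In the 7 libraries low in RNAs without poly(A) tails, which leave 1 TGFβ and 1 Pam3 library, 5 were called, and Slc2a1, Hk2, Pfkl, Pfkp and Slc16a3 kept their calls. Macrophage markers moved with this interaction as well: 11 of 13 were called positive and none negative, and their part in the result was not tested.

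**Figure D4:**
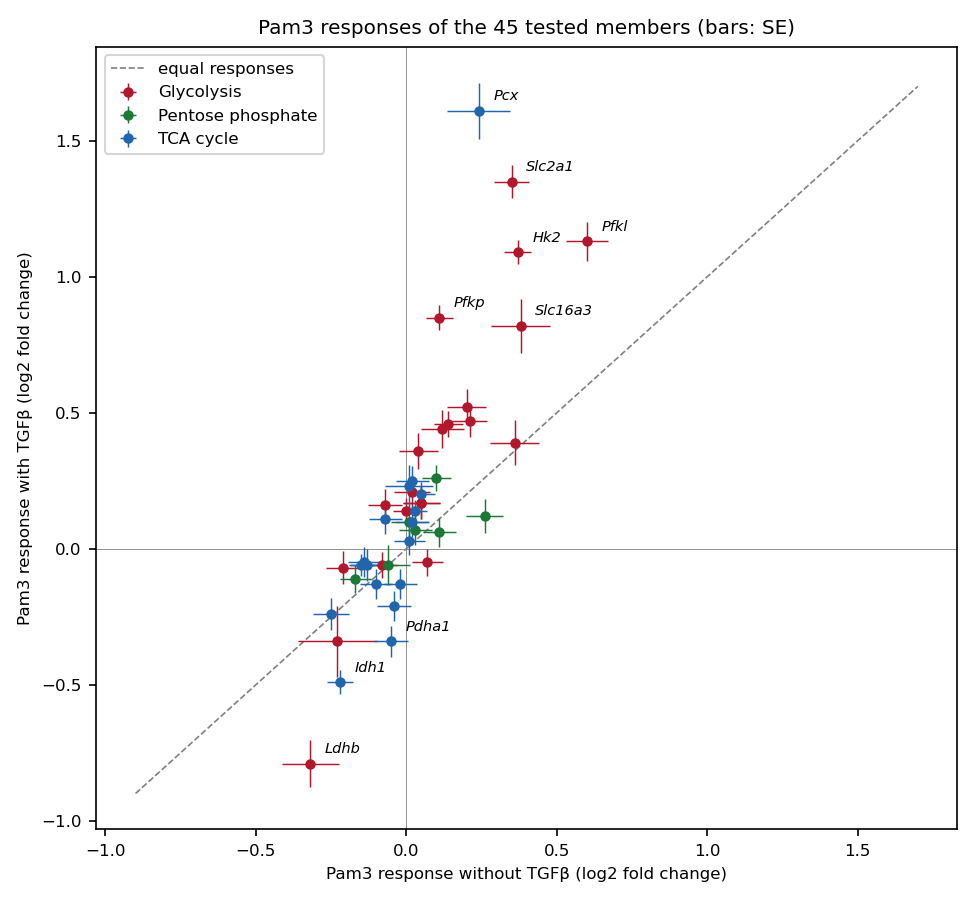
Each point is a tested member, with its Pam3 response (log2 fold change) without TGFβ on the x axis and with TGFβ on the y axis, bars for the SE and a dashed line for equal responses. Pcx, Slc2a1, Hk2, Pfkl, Pfkp and Slc16a3 lie above the line, and Ldhb and Idh1 below it.

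The promoters of members that rose together are shown for what they share. The letters ACGTG, a form of the core that hypoxia-inducible factors are known to bind, were searched on both strands. The window was the 250 bases before the start of each gene in the RefSeq promoter table (GRCm38.p6). Other forms of the core were not searched. ACGTG was present in 9 of 22 glycolysis promoters (40.9%), 5 of 16 TCA promoters (31.2%) and none of the 7 pentose phosphate promoters, against 21.2% of 11210 promoters of tested genes and 16.6% of all 27025. CACGTG, the palindrome that holds the core on each strand, was in 2 glycolysis and 1 TCA promoter and in 8.12% of those of tested genes. Among the 10 glycolysis genes with a positive interaction, 6 held ACGTG: Slc2a1, Slc16a3, Hk2, Pgk1, Pgam1 and Ldha, while Pfkl, Pfkp, Tpi1 and Gapdh did not. Stretches of 221, 221 and 159 bases, shorter than the searched window, are shown for Slc2a1 (chr4:118965692-118965912, plus strand), Hk2 (chr6:82751465-82751685, minus strand) and Ldha (chr7:46494978-46495136, plus strand). They are matched to GRCm39 and end 5 bases into the first annotated exon that the window meets, with the core in capitals. The match of Slc2a1 runs into that exon. The RefSeq start of Ldha lies inside a longer GRCm39 gene model, and its searched window held 5 matches, of which the shorter stretch printed holds 2, at the CACGTG. A match of letters is a description, and whether a factor binds there was not measured.
Slc2a1: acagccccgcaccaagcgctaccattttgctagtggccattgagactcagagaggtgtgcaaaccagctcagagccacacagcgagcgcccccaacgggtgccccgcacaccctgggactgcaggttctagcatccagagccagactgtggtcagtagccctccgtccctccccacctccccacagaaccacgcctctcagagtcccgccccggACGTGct
Hk2: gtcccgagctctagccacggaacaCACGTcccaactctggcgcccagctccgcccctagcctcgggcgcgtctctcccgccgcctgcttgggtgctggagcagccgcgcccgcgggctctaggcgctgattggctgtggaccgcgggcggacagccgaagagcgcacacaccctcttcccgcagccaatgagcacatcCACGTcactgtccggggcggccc
Ldha: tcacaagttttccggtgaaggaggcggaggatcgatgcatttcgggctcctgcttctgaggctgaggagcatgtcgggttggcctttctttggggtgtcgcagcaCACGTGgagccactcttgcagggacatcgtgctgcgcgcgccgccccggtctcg

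Of the pentose phosphate genes, 4 were called for TGFβ in each setting, and at most 2 for Pam3. G6pdx, the first and rate-limiting enzyme, read 207, 245 and 222 CPM in the untreated libraries, 210, 217 and 211 with TGFβ, 243, 235 and 243 with Pam3, and 257, 259 and 248 with both agents. Its Pam3 response with TGFβ was called (0.26, SE 0.0479, adjusted p = 9.4e-05), the only call of the pathway in that comparison, and the TGFβ effects were not (-0.08, SE 0.0479, adjusted p = 0.189 without Pam3 and 0.08, SE 0.0478, adjusted p = 0.178 with it). Pgls, the lactonase, stayed between 41.3 and 52.8 CPM with no call in any contrast. Pgd, the second NADPH-forming enzyme (chr4:149233246-149251228, minus strand), read 856, 980 and 881 CPM in the untreated libraries, 1155, 1149 and 1139 with TGFβ, 1008, 960 and 958 with Pam3, and 1180, 1215 and 1194 with both agents, and no library without TGFβ reached any with it. TGFβ raised Pgd by 0.34 (SE 0.0536, adjusted p = 7.24e-06) without Pam3 and by 0.29 (SE 0.0536, adjusted p = 5.92e-05) with it.

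The non-oxidative branch interconverts pentoses and glycolytic sugars. Rpia, the ribose isomerase (chr6:70742704-70769216, minus strand), read 51.9, 52.4 and 49.9 CPM in the untreated libraries, 82.3, 78.4 and 82.7 with TGFβ, 57.2, 48.4 and 49.9 with Pam3, and 84.6, 86.5 and 90.1 with both agents, with a clear gap between the libraries with and without TGFβ. Its TGFβ effect was the largest of the pathway, 0.66 (SE 0.0614, adjusted p = 1.37e-09) without Pam3 and 0.75 (SE 0.0615, adjusted p = 1.52e-10) with it. Taldo1, transaldolase, read 203, 229 and 197 CPM in the untreated libraries, 289, 270 and 265 with TGFβ, 179, 194 and 186 with Pam3, and 250, 265 and 250 with both agents and rose with TGFβ by 0.39 (SE 0.0514, adjusted p = 6.16e-07) without Pam3 and 0.45 (SE 0.0515, adjusted p = 6.99e-08) with it. Tkt, transketolase, ran from 803 CPM in an untreated library to 1022 CPM with both agents. Its TGFβ effect was 0.22 (SE 0.0549, adjusted p = 0.00179) in Pam3 cells and 0.18 (SE 0.0549, adjusted p = 0.00861) without Pam3, the latter lost without untreated library 3 (0.15, adjusted p = 0.0513). Rpe, the epimerase, read 65.1, 65.9 and 66.3 CPM in the untreated libraries, 72.1, 71.8 and 66 with TGFβ, 83.4, 82.5 and 70.5 with Pam3, and 77.2, 74.8 and 75.5 with both agents and was the only member of the pathway to rise with Pam3 alone (0.26, SE 0.0615, adjusted p = 0.00307). Kansl1l, which overlaps Rpe with 11.2% of its counts, rose in the same comparison (0.40, adjusted p = 0.0392), and its part in the result was not tested. Taldo1 fell slightly with Pam3 alone (-0.17, SE 0.0515, adjusted p = 0.0214), a call lost without untreated library 2 or Pam3 library 1 or 3 (-0.17 to -0.10, adjusted p = 0.0591 to 0.135), so the count of 2 calls became 1 without Pam3 library 1 or 3. No interaction was called for any of the 7 genes (adjusted p from 0.126 to 1 in edgeR), and 1 was called without untreated library 1. For Pam3 with TGFβ the count of 1 became 2 without untreated library 2, TGFβ library 3 or Pam3+TGFβ library 2, and none in the 7 libraries low in RNAs without poly(A) tails. The same 4 genes were called for TGFβ with and without Pam3, in the same direction. A list of 15 proliferation genes moved with them: 10 were higher with TGFβ alone and 13 with TGFβ in Pam3 cells, none lower, and their part in the result was not tested.

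Pyruvate reaches the TCA cycle as acetyl-CoA through pyruvate dehydrogenase or as oxaloacetate through pyruvate carboxylase, and the latter route held the largest change among the 45 tested genes. Pcx, pyruvate carboxylase (chr19:4559902-4672189, plus strand), read 15.4, 21.7 and 15.6 CPM in the untreated libraries, 14.3, 15.2 and 13.6 with TGFβ, 20, 19.7 and 22.5 with Pam3, and 45.9, 42.4 and 43 with both agents. The 3 Pam3+TGFβ libraries lay above every other library, and the others overlapped in part. The Pam3 response of Pcx was 1.61 (SE 0.104, adjusted p = 4.79e-12) with TGFβ, a mean CPM 3.04-fold higher, and 0.24 (SE 0.104, adjusted p = 0.127) without TGFβ, which was not called. The interaction was 1.37 (SE 0.147, adjusted p = 1.77e-07). In Pam3 cells TGFβ raised Pcx (1.08, SE 0.102, adjusted p = 3.59e-09). The fall with TGFβ alone (-0.29, SE 0.106, adjusted p = 0.0244) was lost without untreated library 2 or TGFβ library 1 or 3 (-0.26 to -0.11, adjusted p = 0.0857 to 0.343). Rce1 and Lrfn4, which overlap Pcx on the opposite strand, had interactions of -0.01 and -0.02 and no call in any contrast.

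The pyruvate dehydrogenase complex was split. Its alpha subunit Pdha1 read 75.9, 76.8 and 79.4 CPM in the untreated libraries, 77.3, 78.4 and 76.6 with TGFβ, 77.3, 77.9 and 68.7 with Pam3, and 60.9, 63.4 and 59.4 with both agents, lowest with both agents. Pdha1 fell with Pam3 in TGFβ cells (-0.34, SE 0.0568, adjusted p = 2.64e-05) and was lower with TGFβ in Pam3 cells (-0.29, SE 0.0569, adjusted p = 0.000176), and its interaction (-0.29, SE 0.0801, adjusted p = 0.0135) was lost without Pam3 library 1 or 2 (-0.26 and -0.25, adjusted p = 0.0509 and 0.0596). TGFβ alone lowered Dlat, the acetyltransferase (-0.29, SE 0.0555, adjusted p = 0.000108), and in Pam3 cells the TGFβ effect was not called (-0.05, SE 0.0553, adjusted p = 0.487). With Pam3, Dlat went the other way from Pdha1, with a rise in TGFβ cells of 0.25 (SE 0.0555, adjusted p = 0.000614) and an interaction of 0.24 (SE 0.0783, adjusted p = 0.0401). That interaction was lost without untreated library 1, TGFβ library 1 or 3, Pam3 library 2 or any Pam3+TGFβ library (0.19 to 0.23, adjusted p = 0.0702 to 0.158). The beta subunit Pdhb rose in the same comparison (0.23, SE 0.0797, adjusted p = 0.0267), a call lost without TGFβ library 1 or 2 or Pam3+TGFβ library 1 or 2 (0.18 to 0.22, adjusted p = 0.0638 to 0.132), while Pxk, which overlaps it, had a log2 fold change of 0.64. Pdk1, the kinase that turns the complex off, read 68.1, 66.5 and 61.3 CPM in the untreated libraries, 92.1, 95.8 and 90.8 with TGFβ, 61.2, 66.6 and 62.8 with Pam3, and 80.3, 78.3 and 81.7 with both agents and was higher with TGFβ, by 0.51 (SE 0.0557, adjusted p = 2.45e-08) without Pam3 and by 0.33 (SE 0.0559, adjusted p = 1.9e-05) with it. Pam3 lowered Pdk1 in TGFβ cells (-0.21, SE 0.0554, adjusted p = 0.00312).

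Among the isocitrate dehydrogenases, Idh1, the cytosolic NADPH-forming enzyme (chr1:65196781-65225721, minus strand), read 476, 475 and 478 CPM in the untreated libraries, 548, 541 and 535 with TGFβ, 414, 413 and 398 with Pam3, and 384, 380 and 396 with both agents. Its TGFβ libraries were the highest and its Pam3+TGFβ libraries the lowest, and no 2 groups overlapped. Pam3 lowered Idh1 without TGFβ (-0.22, SE 0.0437, adjusted p = 0.00052) and more with TGFβ (-0.49, SE 0.0438, adjusted p = 1.27e-09), with an interaction of -0.26 (SE 0.0618, adjusted p = 0.00357). Idh2, its mitochondrial counterpart, read 106, 125 and 101 CPM in the untreated libraries, 145, 143 and 149 with TGFβ, 94.9, 94.4 and 90.5 with Pam3, and 121, 128 and 122 with both agents and was lower with Pam3 in both settings (-0.25, SE 0.06, adjusted p = 0.00391 and -0.24, SE 0.0594, adjusted p = 0.00221). TGFβ raised it (0.40, SE 0.0596, adjusted p = 3.94e-06 without Pam3 and 0.41, SE 0.0599, adjusted p = 3.35e-06 with it), while Zfp710, which overlaps Idh2, fell with TGFβ (-0.24 and -0.28). The share of Idh2 in the pair per kb was 30.4% ± 2.44 in untreated cells and 37.6% ± 1.04 with both agents (SD, n = 3). Idh3a, a subunit of the NAD-linked enzyme, ran from 83.5 to 99.8 CPM and was lower with TGFβ alone (-0.19, SE 0.0555, adjusted p = 0.00614).

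The rest of the cycle was mostly lower with TGFβ. Ogdh, of the oxoglutarate dehydrogenase complex, read 352, 350 and 343 CPM in the untreated libraries, 259, 260 and 260 with TGFβ, 353, 351 and 361 with Pam3, and 290, 279 and 290 with both agents, with no overlap between libraries with and without TGFβ. Its TGFβ effect was -0.43 (SE 0.0395, adjusted p = 1.15e-09) without Pam3 and -0.31 (SE 0.0394, adjusted p = 3.2e-07) with it, and its small rise with Pam3 in TGFβ cells (0.14, SE 0.0394, adjusted p = 0.00549) was lost without Pam3+TGFβ library 1 or 3 (both 0.11, adjusted p = 0.063 and 0.0618). Suclg1, a succinyl-CoA ligase subunit, read 67.2, 74.3 and 68.2 CPM in the untreated libraries, 57.3, 57.2 and 57.3 with TGFβ, 67.8, 70.9 and 68.7 with Pam3, and 52.2, 52 and 52.5 with both agents, and its TGFβ effect was -0.29 (SE 0.0551, adjusted p = 9.55e-05) without Pam3 and -0.40 (SE 0.0553, adjusted p = 1.12e-06) with it. Sucla2, its ADP-specific partner, fell with TGFβ alone (-0.20, SE 0.056, adjusted p = 0.00441). Sdha, the flavin subunit of succinate dehydrogenase, read 358, 387 and 370 CPM in the untreated libraries, 310, 315 and 310 with TGFβ, 335, 340 and 330 with Pam3, and 301, 300 and 297 with both agents. It was lower with TGFβ without Pam3 (-0.25, SE 0.0415, adjusted p = 1.28e-05) and with it (-0.16, SE 0.0415, adjusted p = 0.00201), and it fell with Pam3 alone (-0.15, SE 0.0415, adjusted p = 0.0123), a call lost without Pam3 library 3 (-0.14, adjusted p = 0.0565). The iron-sulfur subunit Sdhb was lower too, at -0.33 (SE 0.0571, adjusted p = 2.8e-05) without Pam3 and -0.25 (SE 0.0573, adjusted p = 0.000664) with it.

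Fh1, fumarase, had TGFβ effects of -0.19 (SE 0.0539, adjusted p = 0.00384) without Pam3, lost without untreated library 1 (-0.13, adjusted p = 0.0673), and -0.22 (SE 0.0541, adjusted p = 0.00127) with Pam3. Cs, citrate synthase, rose with Pam3 in TGFβ cells (0.20, SE 0.0451, adjusted p = 0.000784). Its TGFβ effect without Pam3 (-0.13, SE 0.0451, adjusted p = 0.0158) was lost without untreated library 2 or TGFβ library 2 or 3 (-0.11 to -0.09, adjusted p = 0.0946 to 0.124). The malate dehydrogenases Mdh1 and Mdh2 had no call in any of the 5 contrasts, with log2 fold changes from -0.14 to 0.10. In the 7 libraries low in RNAs without poly(A) tails, 7 TCA genes were called for TGFβ alone in place of 13, 4 for Pam3 with TGFβ in place of 9, none for Pam3 alone in place of 3, and 1 interaction, Pcx, in place of 4. Without Pam3 library 2, 2 TCA interactions were called, those of Pcx and Idh1.

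**Figure D5:**
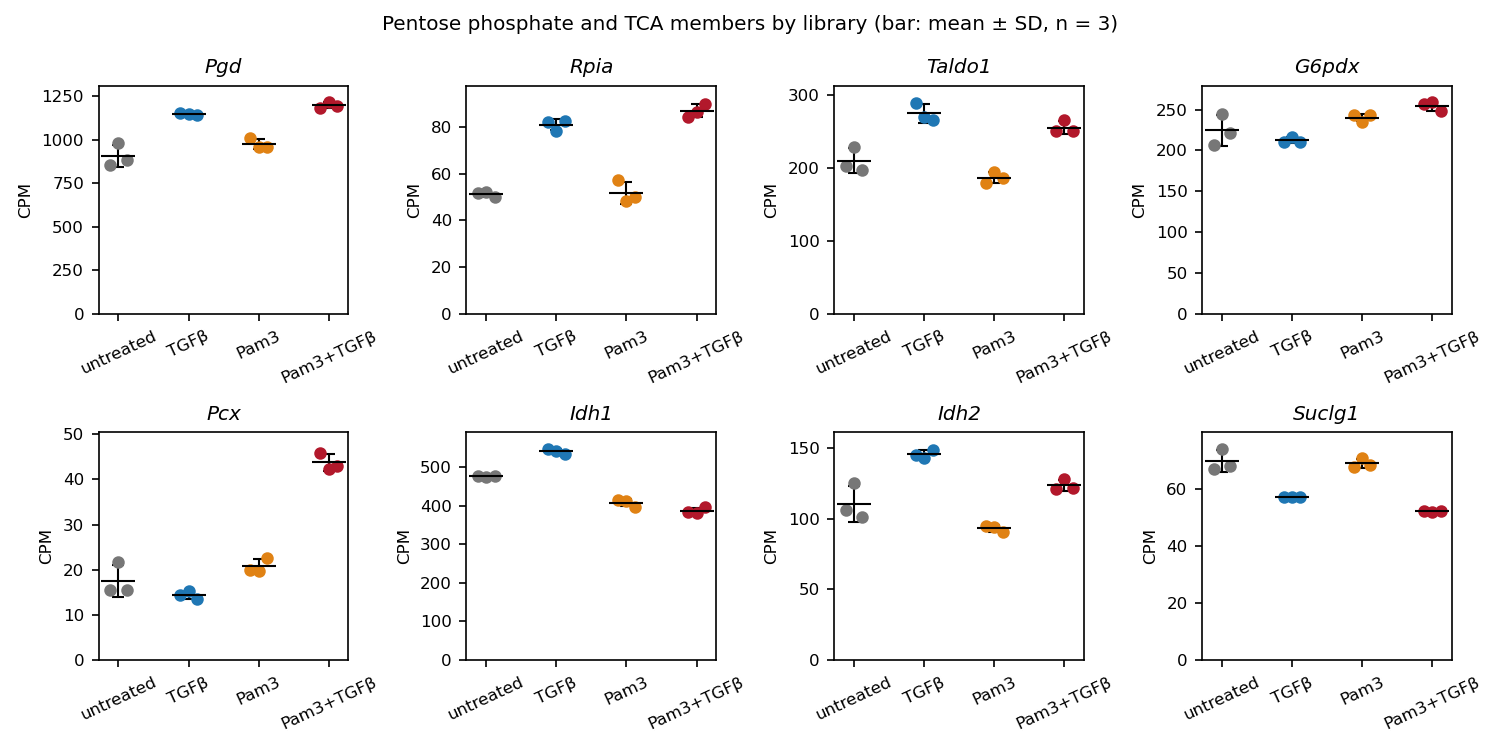
Points are the 3 libraries of each group in CPM, and the bar and whiskers are their mean and SD, for 4 pentose phosphate and 4 TCA genes. Pgd, Rpia and Taldo1 are higher in all 6 libraries with TGFβ than in the 6 without, Pcx is high only in the 3 Pam3+TGFβ libraries, and Suclg1 is lower in the 6 with TGFβ.

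Other genes of the same pathways were listed by function, and their counts stand beside the shares of all tested genes, which were 20.4% higher and 18.1% lower with Pam3 in TGFβ cells, 22.9% and 28.1% with TGFβ alone, and 10.3% and 5.67% for the interaction. Of 20 tested further genes of glycolysis and sugar or lactate transport, 3 rose and 7 fell with Pam3 in TGFβ cells, with 1 positive and 2 negative interactions. The glucose carrier Slc2a6 was the positive one: it averaged 162 ± 20.2, 10.6 ± 0.284, 208 ± 8.99 and 37 ± 3.66 CPM (SD, n = 3) in the untreated, TGFβ, Pam3 and Pam3+TGFβ groups, with an interaction of 1.44 (SE 0.113, adjusted p = 6.78e-09). Unlike Slc2a1 it was far lower with TGFβ in Pam3 cells (-2.49, SE 0.0796, adjusted p = 3.24e-16). Slc2a8 had a negative interaction (-0.48, SE 0.162, adjusted p = 0.0449), as did Slc16a1 (-0.31, SE 0.105, adjusted p = 0.0483), a lactate carrier. Of 7 tested further pentose phosphate genes, 3 were higher and 1 lower with TGFβ alone. H6pd, the enzyme that runs the oxidative steps in the endoplasmic reticulum, averaged 68.8 ± 3.61, 149 ± 6.92, 72.7 ± 4.42 and 194 ± 6.88 CPM and rose with TGFβ (1.11, SE 0.0555, adjusted p = 6.44e-15). Shpk, the sedoheptulose kinase, fell with Pam3 in TGFβ cells (-1.12, SE 0.138, adjusted p = 2.78e-07). Of 33 tested further TCA genes, 6 were higher and 15 lower with TGFβ alone. Acod1, which draws aconitate off to itaconate, averaged 9.72 ± 2.79, 0.534 ± 0.199, 55.7 ± 4.08 and 132 ± 16.1 CPM, with an interaction of 5.41 (SE 0.379, adjusted p = 7.69e-06). Pdk2, another pyruvate dehydrogenase kinase, fell with Pam3 without TGFβ (-0.73, SE 0.105, adjusted p = 1.07e-05) and with it (-1.12, SE 0.107, adjusted p = 3.53e-09). Got1, an aspartate aminotransferase, was lower with TGFβ (-1.17, SE 0.07, adjusted p = 2.45e-13).

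Genes of 2 regulators known to act on these pathways were counted in the same way, beside the same shares. Of 8 genes of the hypoxia-inducible factor pathway, 3 rose and 3 fell with Pam3 in TGFβ cells. Egln3 moved most of this list in each simple contrast, from low levels. It averaged 0.886 ± 0.315, 4.29 ± 1.27, 2.34 ± 0.321 and 11.2 ± 1.8 CPM (SD, n = 3) in the untreated, TGFβ, Pam3 and Pam3+TGFβ groups. Its Pam3 response was 1.38 both without TGFβ (SE 0.264, adjusted p = 0.00053) and with it (SE 0.201, adjusted p = 6.99e-06). TGFβ raised Egln3 by 2.26 without Pam3 (SE 0.25, adjusted p = 7.54e-08) and by 2.25 with it (SE 0.215, adjusted p = 8.21e-09). Hif1a averaged 172 ± 6.64, 181 ± 5.27, 227 ± 3.25 and 301 ± 23.3 CPM (SD, n = 3) and rose with Pam3 without TGFβ (0.40, SE 0.0488, adjusted p = 9.03e-07) and with it (0.73, SE 0.0488, adjusted p = 3.76e-12), with an interaction of 0.33 (SE 0.0688, adjusted p = 0.00114). Epas1 fell in the same comparisons (-0.62, SE 0.0594, adjusted p = 1.96e-08 and -0.75, SE 0.0615, adjusted p = 1.87e-10). Vhl, part of the ligase that degrades both factors, was higher with TGFβ (1.29, SE 0.0625, adjusted p = 3.75e-15). Pam3 lowered Vhl in TGFβ cells (-0.37, SE 0.0608, adjusted p = 2.39e-05), and its interaction was negative (-0.50, SE 0.0876, adjusted p = 0.00017). Of 16 tested known targets of these factors outside the 3 pathways, 4 rose and 2 fell with Pam3 in TGFβ cells, with 1 positive interaction (P4ha1, 0.39, SE 0.0789, adjusted p = 0.000877) and 1 negative (Bnip3l, -0.23, SE 0.0643, adjusted p = 0.0122). Of 10 NRF2 targets outside these pathways, 9 rose and none fell with Pam3 in TGFβ cells, with a median of 0.99 and 6 positive interactions. With TGFβ alone the same list was split, with 2 higher and 5 lower. The cystine carrier Slc7a11 averaged 210 ± 27.9, 163 ± 27.8, 449 ± 31.8 and 1151 ± 170 CPM, and its interaction was 1.73 (SE 0.217, adjusted p = 0.00054). Hmox1, which breaks down heme, reached 0.92 (SE 0.0859, adjusted p = 1.86e-08) for the interaction, and the stress gene Osgin1 0.93 (SE 0.176, adjusted p = 0.00039). These lists were chosen with earlier results of these data known and do not show which factor acted on the members.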

How the data were processed

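Per the labels' protocols, RNA from FLAMs was made into 12 libraries with a stranded messenger RNA kit. Per the submitters' processing notes, the authors used Bowtie2 2.4.1 on GRCm39, which does not split reads over introns, featureCounts (Subread 2.0.0) and DESeq2 1.36.0. The deposited table of whole-number counts was used for the tests. The deposited normalized values are a linear signal, equal to the authors' counts divided by 1 constant per library, and were used as an alternative only. Strand, multi-mapping and annotation settings are not given in the sources used here.

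Counts were tested in edgeR 4.0.16 (R 4.3.3, quasi-likelihood test, TMM scaling, all 4 groups in 1 fit) on 14749 genes kept by a minimum count of 10, with Benjamini-Hochberg adjustment and a threshold of 0.05. CPM use TMM-scaled library sizes, and CPM per kb the canonical transcript of GENCODE M39. Copies were sought with BLAST 2.17.0. Scripts were tested on simulated data. Alternatives were DESeq2 1.42.0, limma-trend 3.58.1 on log2(value + 1) of the deposited normalized values, other scalings and filters, each library left out, a replicate block, and, chosen after seeing the data, a term for the level of RNAs that lack poly(A) tails, the 7 libraries low in them, and copies matched by sequence. Replicate numbers did not pair the libraries.

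The members and lists were chosen with earlier results of these data known. Values in every library are given for, per pathway and contrast, up to 3 called members with the largest absolute log2 fold change, and for Aldoc, Pgam1, Pgk1 and Ldha, which were added after their values were seen.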

Additional observations from a re-analysis of the deposited data

Results flagged for a closer look

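For 15 of the 45 tested members, the response to Pam3 differed between cells with and without TGFβ by the interaction test in edgeR (adjusted p under 0.05), and this difference is what singled them out. Over all tested genes, 15.9% were called for the interaction, 10.3% higher and 5.67% lower. In glycolysis the log2 difference, the response with TGFβ minus that without, was 1.01 for the glucose carrier Slc2a1, 0.74 for Pfkp, 0.72 for Hk2, 0.53 for Pfkl and 0.43 for the lactate exporter Slc16a3. It was 0.33 for Tpi1, 0.33 for Pgam1, 0.32 for Gapdh, 0.32 for Pgk1 and 0.26 for Ldha. For Ldhb it was -0.47. In the TCA cycle it was 1.37 for Pcx, pyruvate carboxylase, and 0.24 for Dlat, while it was -0.26 for Idh1 and -0.29 for Pdha1.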

How the results depend on the processing

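Over all 45 tested members, 4742 of 4950 comparisons of a value with an alternative stayed on the same side of the threshold. Of 2552 comparisons of a called result, 164 lost the call and 0 changed direction, and 44 calls were gained elsewhere. In the 7 libraries low in RNAs without poly(A) tails, the glycolysis calls were 3 for Pam3 alone and 5 for the interaction, the pentose phosphate calls 1 for Pam3 alone and 0 for Pam3 with TGFβ, and the TCA calls 0 for Pam3 alone, 4 for Pam3 with TGFβ, 7 for TGFβ alone and 1 for the interaction. These fits hold fewer libraries, and the lone TGFβ and Pam3 libraries are assumed to vary like the other groups. Upper-quartile scaling gave 2 pentose phosphate calls for Pam3 with TGFβ, and for the same contrast 11 glycolysis genes higher and 3 lower and 3 TCA genes higher and 7 lower. DESeq2 added Suclg1 and Fh1 there, both lower. With 1 library left out, the calls ranged from 6 to 11 for the glycolysis interaction, from 1 to 3 and from 1 to 2 for the pentose phosphate genes under Pam3 without and with TGFβ, from 0 to 1 for their interaction, and from 2 to 4 for the TCA interaction. The change between groups in the log2 ratio of Hk1 to Hk2 then ran from -1.0 to -0.88 for Pam3 with TGFβ. For TGFβ alone it ran from -1.27 to -1.16. The change in the log2 ratio of Idh1 to Idh2 ran from -0.07 to 0.08 for Pam3 alone and from -0.31 to -0.16 for TGFβ alone. With a replicate block, 17 glycolysis genes were called for Pam3 with TGFβ (Pfkm lost) and 10 for the interaction (Slc16a3 lost, 0.43, adjusted p = 0.11), and no other call of a member changed. Only 9 of 18 same-numbered pairs of libraries correlated above 0.1, so the numbers were not taken as a pairing, and 5 of 12 libraries correlated best with their own number. Adding pseudogenes by annotated description was not run. The causes of these changes were not tested.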
